A study of Homo sapiens with 8 samples.

Results

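Desmosomes are the button-like junctions that tie the keratin filaments of neighbouring epithelial cells together. Their cadherins, the desmogleins and desmocollins, bind across the gap between cells and need calcium to do so. Inside the cell plakoglobin and the plakophilins bind the cadherin tails, and desmoplakin links this plaque to keratin. Basal cells of stratified and glandular epithelia carry DSG3 and DSC3 in addition to DSG2 and DSC2, which most epithelia express. The 10 genes described here are the desmosomal cadherins DSG2, DSG3, DSC2 and DSC3, desmoplakin (DSP), plakoglobin (JUP), the plakophilins PKP1, PKP2 and PKP3, and PERP, a membrane protein of desmosomes that is a target of p53 and p63. They were chosen by name from the 25369 gene symbols of the table, and all 10 were found.

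RNA-seq was measured in MCF10A cells, a non-transformed human mammary epithelial line, after 7 days inside 1 of 4 hydrogels, with 2 libraries per gel. The soft IPN and the stiff IPN are interpenetrating networks of reconstituted basement membrane (rBM) and alginate, and calcium crosslinks the alginate of the stiff IPN. The soft col:rBM gel mixes collagen-1 (col-1) with rBM, and the stiff col gel is named for col-1 alone. Whether the stiff col gel held rBM is not given in the sources used here. The wells under the gels were precoated with rBM. All groups are the same unmodified line in 3D culture, with no drug and no genetic change in the labels, and no gel without cells or flat culture was among the libraries. In the IPNs stiffness and added calcium cannot be told apart. Between the stiff col gel and the stiff IPN the col-1, the alginate and the calcium all differ at once, and the rBM may differ too. Between the stiff col and the soft col:rBM gel the col-1 and rBM content may change along with stiffness, and these cannot be told apart.

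Values are normalized counts, which are reads per gene divided by a size factor of the library. Their sums were 14283845 to 17974161 per library. The summed level of 7 markers of mammary epithelium was 62420 to 151001 per library. Of 12 markers of other cell types 4 passed the filter on low values, and the summed level of all 12 was 1449 to 5979. The leukocyte marker PTPRC and the fibroblast collagen COL1A2 were at 0 in all 8 libraries, LUM and COL3A1 were at 0 or 1, VWF was at 0 to 2 and CDH5 was at 0 to 7. CD68 at 324 to 5017, DCN at 526 to 1217 and COL1A1 at 168 to 333 made up most of that sum.

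In hg19 the 4 cadherin genes lie in a single cluster on chromosome 18, with DSC3 at chr18:28569331-28622781 and DSC2 at chr18:28638806-28682485 on the minus strand, and DSG3 at chr18:29027704-29058665 and DSG2 at chr18:29078140-29128971 on the plus strand. DSP lies at chr6:7541571-7586947 (plus), PERP at chr6:138409642-138428556 (minus), JUP at chr17:39910856-39943183 (minus), PKP1 at chr1:201252580-201302121 (plus), PKP2 at chr12:32943679-33049732 (minus) and PKP3 at chr11:392614-404908 (plus). DSG3 and DSG2 are neighbours in the same orientation, and their ratio within a library is among the results, so the 250 bases before their start sites are shown. The sequences and coordinates are those of RefSeq on GRCh38.p14, read 5′ to 3′ on the plus strand. Capitals mark the letters CAGGTG (an E-box, the kind of site bound by SNAI and ZEB repressors) and GGGCGG (a GC box) on either strand.
DSG2, chr18:31497927-31498176: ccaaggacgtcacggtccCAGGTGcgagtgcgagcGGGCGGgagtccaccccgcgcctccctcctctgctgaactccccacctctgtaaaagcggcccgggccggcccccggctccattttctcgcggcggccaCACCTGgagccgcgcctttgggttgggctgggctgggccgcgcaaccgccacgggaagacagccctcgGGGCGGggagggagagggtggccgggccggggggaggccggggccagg
DSG3, chr18:31447491-31447740: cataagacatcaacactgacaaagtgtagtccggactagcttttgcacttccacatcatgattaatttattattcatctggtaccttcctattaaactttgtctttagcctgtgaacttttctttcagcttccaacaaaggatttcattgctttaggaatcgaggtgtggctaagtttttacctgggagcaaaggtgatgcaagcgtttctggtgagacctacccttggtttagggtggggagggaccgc
The DSG2 window had a GC content of 75.2% with 26 CG dinucleotides, 2 E-boxes and 2 GC boxes. The DSG3 window had a GC content of 42.8% with 4 CG dinucleotides and neither motif. Among all 35116 windows of this length the median GC content was 58.0%, 17.5% held the E-box and 42.6% held the GC box. Windows were found for 8 of the 10 genes, not for PKP2 and PKP3, and the E-box letters were also in windows of DSC2, DSP and JUP. AACCGG, the core letters of a Grainyhead site, were in the windows of DSP and DSC3 (5.99% of all windows), and TGANTCA, an AP-1 site, was in that of PERP (6.57% of all windows). A motif match is a description of the letters, and binding was not measured.

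Per length, PERP was the most abundant of the 10 mRNAs and PKP1 was listed near 0. With the normalized count divided by the kilobases of all annotated exons of a gene, the median over the 8 libraries was 3707 for PERP, with a range of 2470 to 6427. DSP had a median of 937 per kb (650 to 1430), JUP 841 (518 to 1387), DSG2 618 (396 to 722), DSG3 587 (463 to 898) and PKP3 576 (381 to 784). The ranges of these 5 genes overlapped, and all lay below PERP in every library. Ranges leave out that the genes share libraries, and DSP was above JUP in every library but replicate 2 of the stiff IPN. DSC3 at 285 per kb (155 to 329) lay below PKP3 without overlap. Its range overlapped with that of PKP2 at 167 (108 to 209.6), though DSC3 was above PKP2 within every library. DSC2 had a median of 88.4 per kb (63.5 to 116), overlapping with PKP2, and PKP1 had a median of 0.725 per kb (0.161 to 2.25). With the canonical transcript as the length, PKP2 was at 406 per kb and stood above DSC3 at 289, and PKP3 at 775 stood above DSG3 at 587.

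**Figure D1:**
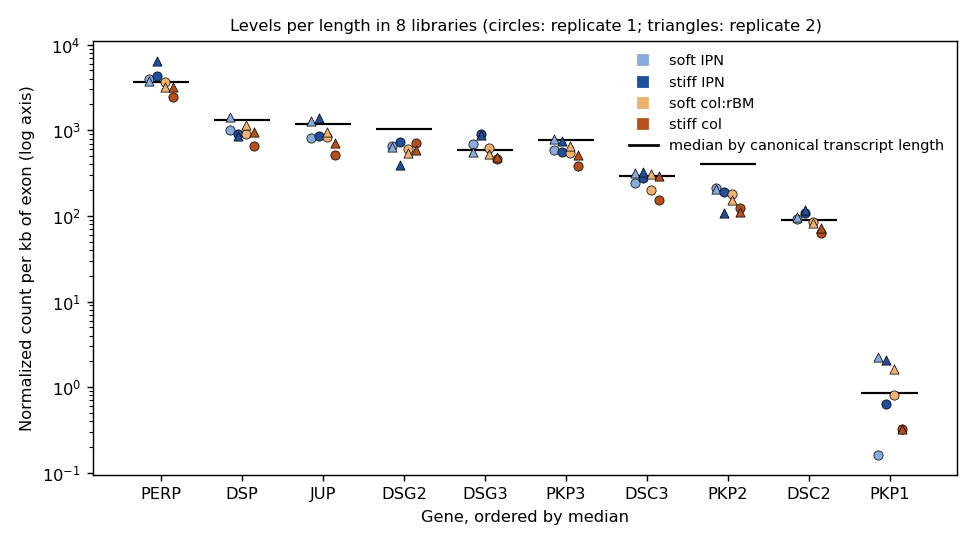
Levels of the 10 desmosome genes per kb of annotated exon on a log axis, 1 point per library (circles for replicate 1, triangles for replicate 2) coloured by gel, with a black line at the median obtained from the canonical transcript length. PERP lies highest, with a median of 3707 per kb, and PKP1 lowest, with 0.725 per kb.

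Desmosomal isoforms of the upper epidermis were at or near 0. The differentiation cadherins DSG1 and DSC1 did not exceed 2 and 4 normalized counts in any library, and corneodesmosin (CDSN), which joins desmosomes of the cornified layer, did not exceed 5. DSG4, a cadherin of hair and upper epidermis, was at 5 and 15 in the stiff IPN and at 0 to 2 in the other 6 libraries. PKP1, the main plakophilin of stratified epidermis, was at 1 and 14 in the soft IPN, 4 and 13 in the stiff IPN, 5 and 10 in the soft col:rBM gel, and 2 and 2 in the stiff col gel (replicates 1 and 2 in each). A count of 3 reads corresponds to 2.41 to 3.73 normalized counts, so the stiff col values of PKP1 are at or below that floor. PKP1 reached the filter of 10 only in 3 libraries, all of replicate 2, so it is left out of the counts of genes by direction and of the medians below. The annotation and strand setting behind the counting are not given in the sources used here, and CTNND1, a catenin that epithelial cells use widely, was itself listed at 14 to 54, so a value near 0 in this table is not by itself evidence that a gene is silent. The plakin linkers envoplakin (EVPL, 223 to 527) and periplakin (PPL, 247 to 2071), and PKP4 (886 to 1110) and KAZN (71 to 206), were measured in every library.

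The comparison of the stiff col gel with the stiff IPN asks how 2 stiff matrices that differ in composition compare, and it held the only calls of desmosome genes between gels in the fits over all 8 libraries. DSG3, DSC2 and JUP were lower in the stiff col gel, to 0.532, 0.602 and 0.561 of their level in the stiff IPN. PERP and PKP3 had fitted ratios of 0.536 and 0.684, and DSG2 had a ratio above 1. The 3 calls were made in the fit that takes the replicate number into account as a block, and none was made in the fit without it.

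DSG3, the basal desmoglein, was at 5012 and 4922 in the stiff IPN and at 2581 and 2706 in the stiff col gel (replicates 1 and 2). It was at 3876 and 3109 in the soft IPN and at 3441 and 2983 in the soft col:rBM gel. Both stiff IPN libraries lay above, and both stiff col libraries below, all of the others. DSG3 was lower in the stiff col gel by a log2 difference of -0.91 (95% interval -1.25 to -0.57 with the block), with an adjusted p of 0.0261 with the block and of 0.330 without it (limma, Benjamini-Hochberg). The difference was -0.96 in replicate 1 and -0.86 in replicate 2.

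DSC2, the widely expressed desmocollin, was at 1357 and 1456 in the stiff IPN, 794 and 901 in the stiff col gel, 1135 and 1213 in the soft IPN, and 1074 and 1027 in the soft col:rBM gel. The 4 gels did not overlap in this gene, and the order from high to low was stiff IPN, soft IPN, soft col:rBM and stiff col. The log2 difference between the stiff col gel and the stiff IPN was -0.73 (-1.04 to -0.42 with the block), with a limma adjusted p of 0.0355 with the block and 0.352 without it.

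JUP, the plakoglobin shared by desmosomes and adherens junctions, was at 4218 and 6855 in the stiff IPN, 2561 and 3556 in the stiff col gel, 4059 and 6380 in the soft IPN, and 4093 and 4744 in the soft col:rBM gel. Replicate 2 was higher than replicate 1 in each gel, and the stiff col gel was lowest within each replicate. The log2 difference was -0.83 (-1.21 to -0.46 with the block), with a limma adjusted p of 0.0428 with the block and 0.743 without it. Over all settings tried the adjusted p of DSG3, DSC2 and JUP ranged from 0.00818, 0.0129 and 0.0106, respectively, to 1.

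PERP was at 18248 and 26982 in the stiff IPN, 10368 and 13621 in the stiff col gel, 16802 and 15844 in the soft IPN, and 15276 and 13563 in the soft col:rBM gel. Its stiff IPN values lay above all others, and replicate 2 was the highest of the 8. The log2 difference between the stiff col gel and the stiff IPN was -0.90 (-1.38 to -0.43 with the block), and it missed the threshold with an adjusted p of 0.0683 with the block (limma). PKP3, a plakophilin that binds most desmosomal cadherins, was at 2136 and 2823 in the stiff IPN and at 1446 and 1952 in the stiff col gel. It was at 2233 and 2976 in the soft IPN and at 2061 and 2498 in the soft col:rBM gel, so that the stiff col gel was lowest within each replicate. Its log2 difference was -0.55 (-0.85 to -0.25 with the block), with a limma adjusted p of 0.0736.

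DSC3, the basal desmocollin, was at 2138 and 2535 in the stiff IPN, 1192 and 2252 in the stiff col gel, 1873 and 2416 in the soft IPN, and 1526 and 2360 in the soft col:rBM gel. Replicate 2 was higher than replicate 1 in each gel, and within each replicate the order from high to low was stiff IPN, soft IPN, soft col:rBM and stiff col. The log2 difference between the stiff col gel and the stiff IPN was -0.51 (-0.92 to -0.09 with the block, -1.32 to 0.31 without it), with a limma adjusted p of 0.186 with the block. DSG2, the desmoglein of simple epithelia, was at 6857 and 3755 in the stiff IPN, 6752 and 5557 in the stiff col gel, 6275 and 5976 in the soft IPN, and 5760 and 5179 in the soft col:rBM gel. The stiff IPN held both the highest and the lowest value of this gene. Its log2 difference between the stiff col gel and the stiff IPN was 0.27 (-0.42 to 0.96 without the block).

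DSP, which anchors keratin to the plaque, was at 12481 and 11685 in the stiff IPN, 8851 and 13047 in the stiff col gel, 13721 and 19471 in the soft IPN, and 12216 and 15719 in the soft col:rBM gel. The stiff matrices overlapped in DSP, with a log2 difference of -0.17 (-0.84 to 0.50 without the block). PKP2, the plakophilin of simple epithelia and heart, was at 1940 and 1111 in the stiff IPN, 1262 and 1151 in the stiff col gel, 2156 and 2134 in the soft IPN, and 1865 and 1570 in the soft col:rBM gel. Its log2 difference between the stiff col gel and the stiff IPN was -0.28 (-0.91 to 0.35 without the block).

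**Figure D2:**
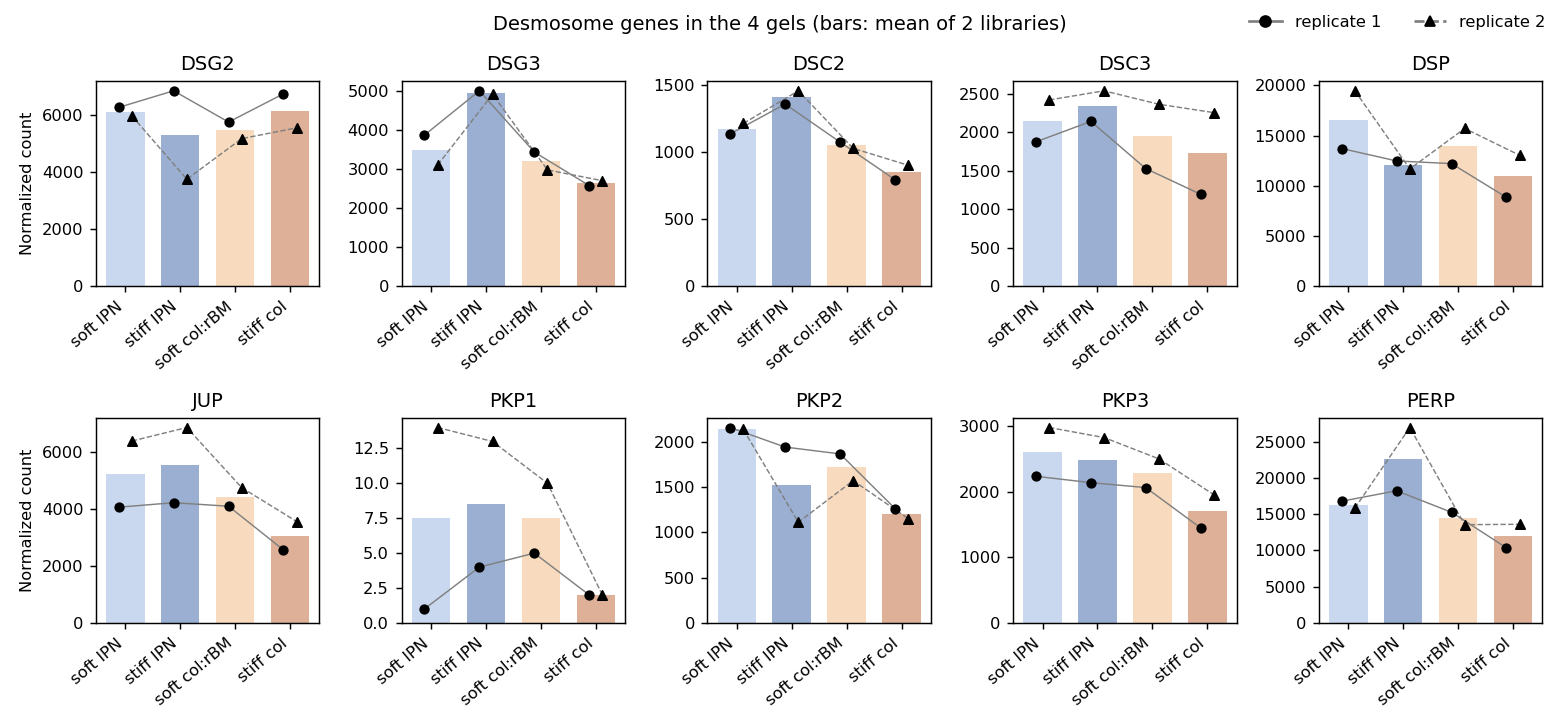
Normalized counts of each desmosome gene in the 4 gels, with bars at the mean of 2 libraries, circles for replicate 1, triangles for replicate 2 and lines that join libraries with the same replicate number. DSG3 is highest in the stiff IPN (5012 and 4922) and lowest in the stiff col gel (2581 and 2706), while DSG2 and PKP2 have their lowest value in replicate 2 of the stiff IPN (3755 and 1111).

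Of the 9 genes other than PKP1, which are above the floor in every library, 8 had a fitted log2 difference below 0 between the stiff col gel and the stiff IPN, and the median was -0.55, beside 0.00391 over the 13349 genes tested. With the replicate block 3 of the 10 were called lower and 0 higher, where 1.47% of all tested genes were called lower and 2.47% in either direction. Without the block 0 of 13349 genes (0%) were called in any of the comparisons between gels. For 5 of the 9 (DSG3, DSC2, JUP, PKP3 and PERP) both stiff col values were below both stiff IPN values, against 15.8% of all tested genes that were lower without overlap and 15.1% that were higher. All libraries are of 1 cell line, and in bulk RNA fewer cells in a given state and less RNA per cell cannot be told apart. The summed markers of other cell types were 2307 and 1449 in the stiff IPN and 5836 and 2318 in the stiff col gel. Those of mammary epithelium were 77226 and 151001 against 62420 and 72366. The latter sum depends much on KRT17, at 19555 and 71907 against 3049 and 13097, and is no measure of the amount of epithelium. Of the 7 mammary markers 5 had a log2 difference below 0 and 2 above 0. The part of these markers in the differences was not tested. The 3 calls rested on all 8 libraries. They were lost when any 1 library of the soft IPN or of the stiff col gel was left out. With 1 library of another gel left out, the set of called genes changed. Over these fits the log2 difference ranged from -1.04 to -0.78 for DSG3, -0.80 to -0.66 for DSC2 and -0.96 to -0.71 for JUP.

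**Figure D3:**
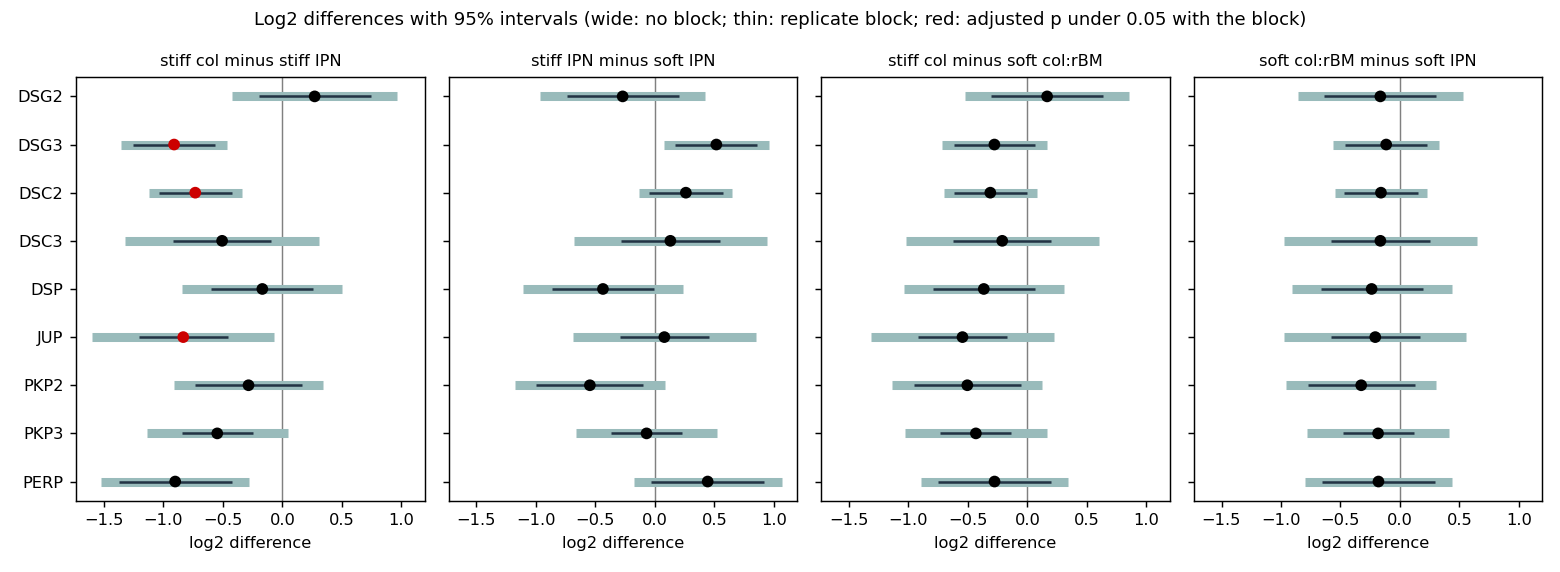
Log2 differences of 9 desmosome genes in 4 comparisons between gels, with wide bars for the 95% interval of the fit without the block, thin lines for the fit with the replicate block, and red points where the adjusted p with the block is under 0.05. Red points appear in the comparison of the stiff col gel with the stiff IPN, at DSG3 (-0.91), DSC2 (-0.73) and JUP (-0.83), and PKP1 is left out because it is near the detection floor.

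Between the stiff and the soft IPN, the comparison that asks about stiffness in a basement membrane matrix, no desmosome gene passed the test. DSG3, DSC2 and PERP were higher in both stiff IPN libraries than in both soft ones, and DSP and PKP2 were lower. This held with and without the block. The log2 differences ran from -0.55 for PKP2 to 0.52 for DSG3, leaving PKP1 aside, and the median of the other 9 was 0.08 beside -0.00622 over all tested genes. The fit with the block called 3.83% of all tested genes in this comparison. Libraries did not overlap in 3 of 9 desmosome genes as higher, against 20.5% of all tested genes, and in 2 of 9 as lower, against 21.4%.

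The log2 difference of DSG3 between the IPNs was 0.52 (0.17 to 0.86 with the block), with an adjusted p of 0.0898 with the block and 0.505 without it (limma). It was 0.37 in replicate 1 and 0.66 in replicate 2. DSC2 differed by 0.26 (-0.05 to 0.57 with the block), and by the same amount in both replicates. PERP differed by 0.44 (-0.03 to 0.92 with the block), with 0.12 in replicate 1 and 0.77 in replicate 2. PKP2 differed by -0.55 (-0.997 to -0.10 with the block) and DSP by -0.44 (-0.87 to -0.01 with the block). For both the difference was small in replicate 1, at -0.15 and -0.14, and large in replicate 2, at -0.94 and -0.74.

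In DSG2, DSP, PKP2 and PERP most of the difference between the IPNs thus came from replicate 2. In DSG2, PKP2 and PERP its stiff IPN library stood apart from the other IPN libraries, at 3755, 1111 and 26982. PKP2 was nearly as low in the stiff col gel, at 1262 and 1151. In DSP the soft IPN library of replicate 2 was the highest of the 8, at 19471. DSG2 differed by 0.13 in replicate 1 and by -0.67 in replicate 2. Without replicate 1 of the stiff IPN, the fit with the block gave log2 differences of -0.62 for DSG2, -0.72 for DSP, -0.88 for PKP2 and 0.58 for DSG3. In that fit the lone remaining library is assumed to vary like those of the other gels, so no calls are given. Without replicate 2 of the stiff IPN DSG2 turned to 0.08. Over all settings the adjusted p of DSG2, DSP, PKP2 and DSG3 ranged up to 0.999 each. JUP, DSC3 and PKP3 had log2 differences of 0.08, 0.13 and -0.07 between the IPNs, with 95% intervals with the block of -0.29 to 0.45, -0.28 to 0.54 and -0.37 to 0.23.

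In the col-1 gels the stiffer gel, whose label names no rBM, had lower values of most desmosome genes. Of the 9 genes above the floor 8 had a log2 difference below 0 between the stiff col and the soft col:rBM gel, with a median of -0.31 beside -0.00353 over all tested genes. DSG3, DSC2, JUP, PKP2 and PKP3 were lower in both stiff col libraries than in both soft col:rBM ones, which is 5 of 9 against 9.5% of all tested genes lower and 9.51% higher without overlap. In the fits over all gels no member passed the test, with or without the block, and no gene of the table did so with the block (0%).

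JUP had the largest log2 difference among the genes above the floor, at -0.55 (-0.92 to -0.17 with the block), with -0.68 in replicate 1 and -0.42 in replicate 2. PKP2 followed with -0.51 (-0.96 to -0.06 with the block), PKP3 with -0.43 (-0.73 to -0.13) and DSP with -0.37 (-0.80 to 0.06). All 4 are proteins of the plaque. Among the cadherins DSC2 was at -0.31 (-0.62 to -0.0040), DSG3 at -0.28 (-0.62 to 0.07), DSC3 at -0.21 (-0.63 to 0.20) and DSG2 at 0.17 (-0.30 to 0.64). PERP differed by -0.28 (-0.75 to 0.20), with -0.56 in replicate 1 and 0.01 in replicate 2.

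In a fit of the 4 libraries of the col-1 gels alone with the replicate block, chosen after the data were seen, 6 of the 10 genes were called lower in the stiff col gel, where 4.11% of all tested genes were. They were JUP (adjusted p = 0.000541), PKP2 (0.000728), PKP3 (0.00238), DSP (0.00553), DSC2 (0.0381) and DSG3 (0.0487), all by limma. That fit takes its spread from these gels only, where same-numbered libraries moved together the most (correlation 0.819 of the deviations from the gel means). Over all settings the adjusted p of each of the 6 ranged up to 1.

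Between the soft gels no desmosome gene passed the test. All 9 genes above the floor had a log2 difference below 0 between the soft col:rBM gel and the soft IPN, with a median of -0.18 beside -0.00275 over all tested genes. DSG2, DSC2, PKP2 and PERP were lower in both soft col:rBM libraries, which is 4 of 9 against 10.4% of all tested genes lower and 10.3% higher without overlap. The log2 differences lay between -0.33 for PKP2 and -0.12 for DSG3. No gene was called with the block (0%), and the 95% intervals of these 9 genes with the block reached from -0.78 (PKP2) to 0.31 (DSG2).

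Whether the difference between the stiffer and the softer gel is the same in both systems was tested as an interaction. This contrast does not isolate stiffness. Calcium changes with it in the IPNs, and col-1 and rBM may change with it in the col-1 gels. For DSG3 the difference in the col-1 gels minus that in the IPNs was -0.79 (-1.28 to -0.31 with the block), for DSC2 -0.57 (-1.01 to -0.14), for JUP -0.63 (-1.15 to -0.10) and for PERP -0.72 (-1.39 to -0.05). None passed the test over all genes, with adjusted p of 0.313, 0.389, 0.426 and 0.468 with the block (limma), where 0.015% of all tested genes were called. PKP2 and DSP had interaction values of 0.04 and 0.07, with intervals with the block of -0.60 to 0.68 and -0.54 to 0.68. In the test of any difference among the 4 gels the fit with the block called 1.56% of all tested genes and no member, the lowest adjusted p being 0.0694 for DSG3.

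Ratios within a library, which do not depend on how libraries were scaled against each other, separated gels by their desmogleins. The ratio of DSG3 to DSG2 normalized counts was 0.618 and 0.520 in the soft IPN (replicates 1 and 2), 0.731 and 1.31 in the stiff IPN, 0.597 and 0.576 in the soft col:rBM gel, and 0.382 and 0.487 in the stiff col gel. The stiff IPN lay above and the stiff col gel below all other libraries. On the log2 scale the ratio differed between the stiff col gel and the stiff IPN by -0.93 in replicate 1 and -1.43 in replicate 2. The ratio of the desmocollins DSC3 to DSC2 was 1.42 to 1.65 in replicate 1 and 1.74 to 2.50 in replicate 2, and it separated the replicates and not the gels.

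The plaque ratios set 1 library apart. JUP to DSP was 0.587 in replicate 2 of the stiff IPN and 0.273 to 0.338 in the other 7 libraries. PKP2 to PKP3 was 0.394 in that library, 0.590 to 0.717 in the other libraries of replicate 2, and 0.873 to 0.966 in replicate 1. The ratio of PKP1 to PKP3 did not exceed 0.0047 in any library.

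**Figure D4:**
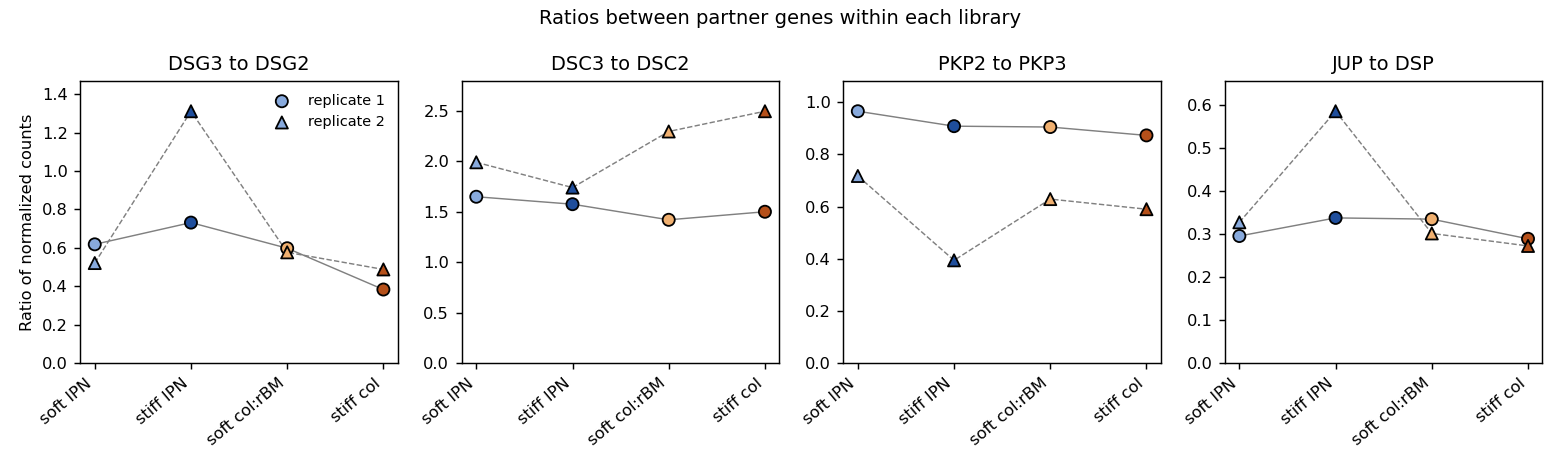
Ratios of normalized counts between 4 pairs of desmosome genes within each library, with circles for replicate 1, triangles for replicate 2 and lines that join libraries with the same replicate number. DSG3 to DSG2 is highest in the stiff IPN (0.731 and 1.31) and lowest in the stiff col gel (0.382 and 0.487), and replicate 2 of the stiff IPN stands apart in JUP to DSP (0.587).

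The replicate number, which the study's methods tie to independent trials, also moved desmosome genes. DSC3 was higher in replicate 2 by a log2 difference of 0.54 (0.25 to 0.83), JUP by 0.51 (0.25 to 0.77) and PKP3 by 0.38 (0.17 to 0.59), in all 4 gels each. Their adjusted p were 0.0192, 0.0164 and 0.0203 (limma, test of the block). These are 3 of 10 called, all higher, where 27.1% of all tested genes were called and 12.7% as higher, which is a share near that of all genes. JUP stayed called without each library of the stiff IPN and of the soft col:rBM gel in turn, and no member was called without any 1 of the libraries of the soft IPN or the stiff col gel. DSC2 and DSG3, which separated the gels most clearly, differed between replicates by 0.08 (-0.14 to 0.30) and -0.12 (-0.36 to 0.12).

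Among the partners of desmosomes, several keratins and E-cadherin were lower in the stiff col gel than in the stiff IPN. Of 12 tested keratins, the filaments that desmosomes anchor, 4 were called lower and 0 higher in that comparison with the block, with a median log2 difference of -0.90. Of all tested genes 1.47% were called lower there and 2.47% in either direction, with a median of 0.00391, and 3.83% were called between the IPNs. The same shares stand beside the counts of the lists below. KRT6B, a keratin of stressed and activated epithelium, was at 616 and 3456 in the stiff IPN and at 52 and 391 in the stiff col gel (log2 difference -3.34, limma adjusted p = 0.00145 with the block). KRT16, also a keratin of activated epithelium, was at 1128 and 2502 against 197 and 382 (-2.61, 0.0429). KRT17, of basal and activated cells, was at 19555 and 71907 against 3049 and 13097 (-2.57, 0.00304). Between the IPNs 2 keratins were called with the block, both higher in the stiff IPN, KRT6B (3.53, 0.000939) and KRT17 (1.88, 0.00671), and KRT6B was also called in the interaction (-3.48, 0.0107).

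Of 10 adherens junction genes 1 was called in each of these comparisons. E-cadherin (CDH1) was at 2312 and 2724 in the soft IPN, 3972 and 5620 in the stiff IPN, 2339 and 2200 in the soft col:rBM gel, and 1283 and 1823 in the stiff col gel. It shared with DSG3 and DSC2 the order of gels at the top and the bottom. Its log2 difference was 0.91 between the stiff and the soft IPN (adjusted p = 0.0377 with the block) and -1.63 between the stiff col gel and the stiff IPN (0.00784). The median of the 10 in the latter was -0.10, against -0.55 in the 9 desmosome genes. P-cadherin (CDH3, 5814 to 9567) and alpha-catenin (CTNNA1, 9549 to 10890) were not called. Of the other desmosomal genes 4 were tested, and PPL was called lower in the stiff col gel than in the stiff IPN, at 457 and 275 against 1304 and 901 (-1.61, adjusted p = 0.0328 with the block).

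Hemidesmosomes anchor keratin to the basement membrane and not to the next cell. Of 9 tested hemidesmosome genes, 2 were called lower in the stiff IPN with the block, the integrin ITGB4 at 21849 and 9669 against 43446 and 36407 (-1.45, adjusted p = 0.0293) and COL17A1 at 16935 and 14108 against 28378 and 28190 (-0.87, 0.0374). Between the stiff col gel and the stiff IPN DST was called lower, at 3301 and 5079 against 7671 and 9894 (-1.09, 0.0165). The median over the 9 genes was -0.47 between the IPNs and 0.34 between the stiff col gel and the stiff IPN. Between the stiff col and the soft col:rBM gel 8 of the 9 had a log2 difference below 0, with a median of -0.16. Of the 12 tested keratins 9 were below 0 there, with a median of -0.26. None of these was called in the fits over all gels. Lower values in the stiffer col-1 gel were thus not particular to desmosome genes.

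Of 11 tested transcription factors of the epithelial state, 3 were called between the stiff col gel and the stiff IPN with the block. The Grainyhead factors GRHL3, at 21 and 68 against 176 and 231 (-2.38, adjusted p = 0.0153), and GRHL1, at 22 and 48 against 108 and 129 (-1.83, 0.0284), were lower in the stiff col gel. GRHL2, also a Grainyhead factor, was listed at 0 in all 8 libraries, which is not by itself evidence that it is silent. The repressor SNAI2 was higher, at 3276 and 2419 against 1880 and 879 (1.13, 0.0280). GRHL1 was also called higher in the stiff than in the soft IPN (1.47, 0.0450). TP63 (622 to 1865), which drives basal identity and PERP, was not called between gels with or without the block.

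Of 6 tested proteases and calcium pumps, the kallikreins KLK5 and KLK7, which cut corneodesmosomes, were called. KLK7 was at 127 and 289 in the stiff IPN and at 0 and 10 in the stiff col gel (adjusted p = 0.0135 with the block), and at 23 and 25 in the soft IPN. KLK5 was at 67 and 196 in the stiff IPN, 1 and 2 in the stiff col gel, and 0 and 10 in the soft IPN, and it was called in both comparisons (0.0376 and 0.0409). Both stiff col values of KLK5 and its value of 0 in the soft IPN lie below the detection floor described for PKP1. The value of 0 for KLK7 in the stiff col gel does so too. KLK5 reached the filter of 10 only in the stiff IPN and in replicate 2 of the soft IPN. Its presence among the tested genes thus rests on the gel in which it was called higher, which limits both calls. The sheddases ADAM10 (1114 to 1794) and ADAM17 (567 to 913) and the pumps ATP2A2 (4229 to 6085) and ATP2C1 (1646 to 2309), whose loss weakens desmosomes in Darier and Hailey-Hailey disease, were not called between gels with or without the block. Of the 7 markers of mammary epithelium 4 were called lower in the stiff col gel than in the stiff IPN with the block, KRT17, EPCAM, CDH1 and KRT14, while TP63 and LAMB3 had log2 differences of 0.07 and 0.33 that were not called. EPCAM was at 124 and 132 against 408 and 434 (-1.71, 0.0280). CD68 was the only marker of other cell types called, at 1220 and 324 in the stiff IPN against 4222 and 2092 in the soft IPN (-2.24, 0.0127) and 4360 and 990 in the stiff col gel (0.0188). None of these listed genes was called without the block, and over all settings their adjusted p ranged up to 1.

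The 5 genes outside the list whose log2 values over the 8 libraries were most like the mean of the 10 desmosome genes were BOK (Pearson r = 0.963), RELL1 (0.949), TSPAN1 (0.947), CCDC85C (0.944) and KIAA1161 (0.940). TSPAN1, a tetraspanin, was at 3215 and 4601 in the stiff IPN and at 650 and 1296 in the stiff col gel, and BOK, of the BCL2 family, was at 624 and 698 and at 381 and 461. Without PKP1 in the mean, r was 0.968 for BOK and 0.976 for CCDC85C, which stayed the top 2, and 0.928, 0.937 and 0.826 for RELL1, TSPAN1 and KIAA1161, which then ranked 18, 11 and 160. The 8 points share gels and replicate numbers, and the 5 genes are the top of all those tested, so the values are a description. The mean log2 value of the 9 desmosome genes without PKP1 was lowest in the stiff col gel, at 11.39 and 11.68, and 11.80 to 12.12 in the other 6 libraries.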

How the data were processed

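The deposited table holds a signal per gene and library: reads counted per gene, divided by the authors' size factors and rounded to whole numbers, called normalized counts here. The submitters' notes name Trim Galore 0.3.3, TopHat2 2.0.13, SAMtools 1.1, HTSeq and DESeq2 with hg19 (the study's methods name Bowtie2 as aligner). Strand setting and annotation are not given in the sources used here. Unscaled counts were not used here, so no count model was fitted. From the steps between whole values, reads on genes were estimated at 13044607 to 18549928 per library.

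Log2(value + 1) was fitted with limma 3.58.1 in R 4.3.3 (trend and robust moderation, 1 mean per gel over all 8 libraries), on the 13349 genes at 10 or more in at least 2 libraries, with Benjamini-Hochberg adjustment over all of them and a threshold of 0.05. A fold is a ratio on this scale and understates changes of low genes. The steps were tested on simulated data without a replicate effect, with larger changes than those of the desmosome genes called. That test does not show how reliable the calls with the block are. With 2 libraries against 2, an exact two-sided permutation test cannot go below 0.333, so none was used for single genes.

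Libraries with the same number deviated together from their gel means (correlation 0.278 to 0.819 over the 6 pairs of gels), and the study's methods describe independent trials, so the fit with replicate number as a block is given beside the fit without it. Gene lists and the 10 genes were chosen with earlier results of these data known. All 10 genes were named, and in each list up to 3 called genes per comparison by size. The 5 genes of like pattern were the top by Pearson r. Genes named as not called, and those near 0, were added after their values were seen. Gene positions and exon lengths are from GENCODE v44lift37 on hg19, in which 90.7% of symbols were found. Alternatives were other scalings, pseudocounts, filters and moderation, fits of the compared gels alone, a correction for GC content and length, and leaving out each library.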

Additional observations from a re-analysis of the deposited data

Results flagged for a closer look

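In 4 desmosome genes both replicates were higher in the stiff than in the soft IPN while both were lower in the stiff col than in the soft col:rBM gel. For DSG3 the log2 differences were 0.37 and 0.66 in the IPNs and -0.41 and -0.14 in the col-1 gels, for DSC2 0.26 and 0.26 against -0.44 and -0.19, for JUP 0.06 and 0.10 against -0.68 and -0.42, and for DSC3 0.19 and 0.07 against -0.36 and -0.07. The difference between both systems was -0.79 for DSG3, -0.57 for DSC2, -0.63 for JUP and -0.34 for DSC3. Tested as an interaction, none passed the threshold, with adjusted p of 0.313, 0.389, 0.426 and 0.709 with the replicate block and 1 without it (limma). Groups of 2 libraries are too small for a search for single outlying libraries.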

How the results depend on the processing

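With the replicate block the members called between the stiff col gel and the stiff IPN went from 0 to 3, and to 4 when GC content and length were also corrected for (DSG3, DSC2, DSC3 and JUP). All other planned settings called 0 members in the comparisons between gels. At an unadjusted p under 0.05 the limma fit without the block held 4 members in that comparison, 1 between the IPNs and 0 in the other comparisons of 2 gels. Of all 13349 genes tested it held 838 in that comparison, 1245 between the IPNs, 140 between the col-1 gels and 190 between the soft gels. Leaving out libraries, chosen after the data were seen, changed which members the fit with the block called, except between the col-1 gels and between the soft gels, where none was called. Fits of the compared gels alone with the block called 1 member (PERP) between the stiff col gel and the stiff IPN. They called 0 between the IPNs and 6 between the col-1 gels. Of all 13349 genes tested they called 261, 300 and 972, in the same order.

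Rescaling to the same total moved the median of all tested genes by 0.27 between the IPNs, -0.11 between the stiff col gel and the stiff IPN, and 0.11 between the soft gels, and the members' medians moved with it to 0.38, -0.75 and -0.065. The members' median between the stiff col gel and the stiff IPN was -0.55 with 10 or more in every library and -0.72 with the GC and length correction, which also took that between the soft gels to -0.26. Leaving out 1 library, the medians ranged from -0.88 to -0.47 (stiff col against stiff IPN), -0.24 to 0.31 (IPNs), -0.56 to -0.22 (col-1 gels) and -0.33 to -0.049 (soft gels). With the canonical transcript length DSG2 was at 1030 per kb, DSP at 1316, JUP at 1186, PKP2 at 406 and PKP3 at 775.

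PKP3 turned between the IPNs, from -0.07 to 0.20 with the same total and to 0.094 with the GC and length correction. All other turns came from leaving out 1 library. Between the IPNs the ranges were -0.71 to 0.16 for DSG2, -0.053 to 0.31 for DSC3, -0.27 to 0.43 for JUP, -0.84 to 2.06 for PKP1 and -0.28 to 0.14 for PKP3. Between the stiff col gel and the stiff IPN they were -0.16 to 0.71 for DSG2, -0.45 to 0.11 for DSP and -0.69 to 0.12 for PKP2, and between the col-1 gels -0.67 to 0.25 for DSC3. Between the soft gels they were -0.27 to 0.043 for DSG3, -0.48 to 0.15 for DSC3, -0.49 to 0.014 for DSP, -0.53 to 0.12 for JUP, -0.88 to 2.02 for PKP1 and -0.39 to 0.023 for PKP3. The causes were not tested. Depth limits PKP1 only, whose values of 1 to 14 lie near the floor of 3 reads, so its fitted differences above are not read as changes. The report gives medians of the 9 genes other than PKP1, a choice made after the data were seen, while the medians here are of all 10, at -0.64, 0.10, -0.34 and -0.17 in the order of the ranges above.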
